A study of Mus musculus with 12 samples.

Results

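The genes of heme breakdown and iron handling described here are Hmox1, Blvra, Blvrb, Slc40a1, Fth1, Ftl1, Tfrc, Slc11a1, Slc11a2 and Ireb2, 10 genes of the 54532 in the deposited table. The rule lists them by name and uses no measured value. The members and the gene lists below were, however, chosen with earlier results of these data known. Their counts and medians beside those of all genes are therefore a description and not a test. All 10 passed the filter on low counts that left 14506 genes to be tested. The libraries are RNA-seq libraries of resident peritoneal macrophages from C57BL/6 mice, 3 in each of 4 groups. The groups are MOPS-buffered medium with LPS, HEPES-buffered medium with LPS, MOPS-buffered medium without LPS and HEPES-buffered medium without LPS. All cells were kept for 24 h in DMEM with one of these buffers. LPS, a bacterial cell-wall component sensed through Toll-like receptor 4, was then given at 10 ng/ml for 2 h. Acidity outside the cell is the subject of the study by its title. Its design text names pH 6.8 before pH 7.4 and MOPS before HEPES, so MOPS is read as pH 6.8 from the order of words alone. Buffer and pH change together and cannot be told apart, and the labels do not say whether libraries of a group came from separate mice or cultures, so p-values speak only of the spread among the libraries.

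Macrophages recover iron from the heme of engulfed red cells. Heme oxygenase 1, the product of Hmox1, opens heme to release iron, carbon monoxide and biliverdin. Biliverdin reductase A, encoded by Blvra, turns this biliverdin into bilirubin, and Blvrb encodes biliverdin reductase B. The freed iron is stored inside ferritin shells built of heavy (Fth1) and light (Ftl1) chains or leaves the cell through ferroportin (Slc40a1), the known cellular iron exporter. Iron enters on transferrin through the transferrin receptor (Tfrc), and the proton-coupled carriers Slc11a1 (NRAMP1, in phagosomes) and Slc11a2 (DMT1, in endosomes) move it across membranes. Iron regulatory proteins, of which Ireb2 encodes IRP2, bind hairpins called iron-responsive elements in mRNA when iron is scarce. Bound to a 5′ untranslated region (UTR) they block translation, and bound to the 3′ UTR of Tfrc they protect the mRNA from decay. RNA-seq reads mRNA level, so the translational arm of this control is not measured here.

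Sites in the members that match a strict form of the iron-responsive element are shown, because hairpins of this kind are what the iron regulatory proteins bind. GENCODE vM21 transcripts (GRCm38, the same assembly as mm10) were searched on the sense strand for a C, 5 bases, the loop CAGTGN and 5 bases that pair with those before the loop, flanked by 5 bases on each side of which at least 4 pair; G-T pairs were allowed. Capitals mark the unpaired C and the loop, in the DNA letters of the transcript file. Of the 10 members, 4 held such a site in a UTR, against 0.0777% of 21877 protein-coding genes, or 17 genes. Fth1, Ftl1 and Slc40a1 each held 1 site in the 5′ UTR, and Tfrc held 4 in the 3′ UTR. A match is a description of the letters, and no match in the other 6 members says only that these letters were not found. An element with another bulge or an unpaired base among the 5 pairs next to the loop would be missed.
Fth1, chr19:9982733-9982759, plus strand: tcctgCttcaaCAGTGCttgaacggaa
Ftl1, chr7:45459780-45459806, minus strand: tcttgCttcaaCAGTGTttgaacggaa
Slc40a1, chr1:45925466-45925492, minus strand: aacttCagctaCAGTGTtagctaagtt
Tfrc, chr16:32631220-32631246, plus strand: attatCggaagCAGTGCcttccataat
Tfrc, chr16:32631599-32631625, plus strand: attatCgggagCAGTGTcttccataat
Tfrc, chr16:32631664-32631690, plus strand: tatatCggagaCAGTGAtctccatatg
Tfrc, chr16:32631711-32631737, plus strand: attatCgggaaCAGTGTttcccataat

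Library totals were 20114613 to 24734853 counts, and levels are given below as CPM, counts relative to library size with the size scaled by TMM factors, or as CPM per kilobase where 2 genes are set against each other. The labelled cell type was checked first. All 10 macrophage markers (such as Adgre1, Csf1r and Lyz2) were detected, with a summed level of 17340.4 to 19674 CPM in MOPS with LPS, against 27297 to 29058 CPM in HEPES with LPS, and of 16707 to 16958 CPM in MOPS, against 25979.8 to 27370.2 CPM in HEPES. Lyz2 alone averaged 12589 CPM in MOPS, against 21964 CPM in HEPES without LPS, and the list held 3 genes called higher and 5 called lower in MOPS. Of 12 erythroid markers 11 were in the table: they summed to 2.39 to 6.48 CPM in the 12 libraries, Slc4a1 was at 0 in all of them, and Alas2, the erythroid form of the first heme synthesis enzyme, reached at most 0.222 CPM. Of the 2 erythroid genes that passed the filter, 1 was called higher and 1 lower in MOPS without LPS. The beta-globin gene Hbb-bs, singled out after its values were seen, had 41 counts over the MOPS-LPS libraries, against 1 count over the HEPES-LPS libraries, and 46 counts in MOPS, against 1 count in HEPES. It was called higher in MOPS with LPS (edgeR adjusted p = 3.07e-05) and without it (9.07e-06), and its reads may be split with the near-identical Hbb-bt. Tmcc2, which made up most of the summed level in the untreated groups, averaged 2.69 CPM in MOPS, against 5.68 CPM in HEPES without LPS, and was called lower there. B cell markers (10 of 10 detected) summed to 138 to 155 CPM in MOPS with LPS, against 33.9 to 39.1 CPM in HEPES with LPS, and to 233 to 239 CPM in MOPS, against 108 to 184 CPM in HEPES. Of the B cell list, 5 genes were called higher and 1 lower in MOPS without LPS, and 9 were called higher with LPS. With LPS, dendritic cell and small peritoneal macrophage markers summed to 239 to 259 CPM in MOPS, against 289 to 351 CPM in HEPES. Without LPS they summed to 169 to 189 CPM in MOPS, against 191 to 210 CPM in HEPES. Of these 7 genes, 2 were called higher and 4 lower in MOPS with LPS, and 3 higher and 1 lower without it. Each of the lists for T and NK, granulocyte and mast, and mesothelial, stromal and endothelial cells summed to at most 22.3 CPM. The part of these marker shifts in the results below was not tested. In bulk RNA, fewer cells of a type and less RNA per cell cannot be told apart.

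Without LPS, 6 of the 10 genes were higher in MOPS than in HEPES and 3 were lower at a Benjamini-Hochberg adjusted p under 0.05 (edgeR quasi-likelihood test over all 14506 genes), where 24.3% of all genes tested were higher and 25.4% lower. The median log2 change of the 10 was 0.46, against -0.0139 over all genes. With LPS, 7 were higher in MOPS and 3 lower, against 26.9% of all genes in each direction, with a median of 0.35 against 0.00469. LPS over untreated cells in MOPS called 8 members higher and 2 lower, where 34.1% of all genes were higher and 34.9% lower. In HEPES, LPS called 6 members higher and 3 lower, where 35.6% of all genes were higher and 41.2% lower. The medians of the 10 under LPS were 0.32 in MOPS and 0.35 in HEPES, against -0.0345 and -0.0841 over all genes. For the difference between the media in the LPS change (the interaction, with the HEPES change subtracted from the MOPS change), 5 members were called positive and 3 negative, where 21.9% and 17.6% of all genes were. Most calls are of small changes: 2 of the 6 members called higher without LPS and 3 of the 7 with LPS changed at least 2-fold. Over all genes tested, 3.36% were called at least 2-fold higher in MOPS without LPS and 6.2% with LPS.

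The LPS comparisons depend on scaling. Scaling to total counts alone, without TMM factors, lowered the median log2 change of all genes by 0.51 in MOPS and by 0.58 in HEPES, and the share of called genes that were higher was then 18.0% in MOPS and 20.6% in HEPES, against 49.4% and 46.3% with TMM. Under that scaling LPS called 3 members higher and 7 lower in MOPS, and 2 higher and 6 lower in HEPES. Upper quartile factors gave shares of 38.5% and 38.3%. The medium comparison with LPS gave 62.4% higher calls under total counts against 50% with TMM, and the interaction 66.4% against 55.5%. The share of positive interaction calls was below that of negative ones with DESeq2 (48.6%) and RLE factors (49%), and without MOPS-LPS replicate 7 or 8 or any 1 of the HEPES-LPS libraries (46.8% to 47.5%). LPS changes below are relative to the bulk of genes as TMM sets it, and each member whose LPS direction reversed under total counts is named with its change.

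**Figure D1:**
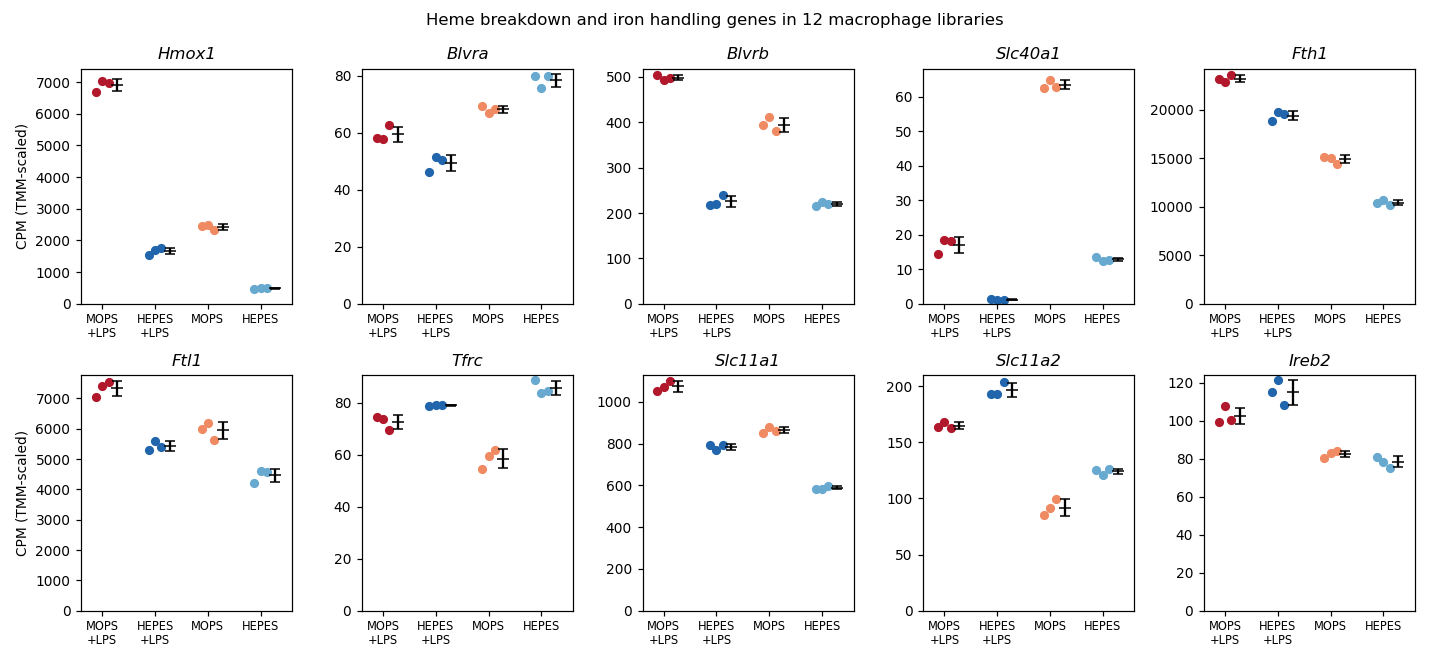
Level of each of the 10 genes in every library, in TMM-scaled CPM on linear axes that start at 0; points are single libraries and the black bar beside them is the mean ± SD of the 3 libraries. Hmox1 was highest in MOPS with LPS (6681 to 7044 CPM) and Slc40a1 in MOPS without LPS (62.5 to 64.9 CPM).

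Hmox1 (ENSMUSG00000005413, chr8:75093621-75100589, plus strand; mm10, as the table gives it) encodes the enzyme that opens the heme ring. With LPS it was at 6681, 7044 and 6986 CPM in the MOPS libraries, against 1556, 1695 and 1758 CPM in the HEPES libraries. Without LPS it was at 2449, 2501 and 2319 CPM in MOPS, against 480.0, 513 and 496 CPM in HEPES. No groups overlapped, and the order was MOPS with LPS, MOPS, HEPES with LPS and HEPES, so that MOPS without LPS lay above HEPES with LPS. The medium difference was 4.13-fold with LPS (log2 2.05 ± 0.043 SE) and 4.88-fold without it (2.29 ± 0.044). LPS raised the gene 2.85-fold in MOPS (1.51 ± 0.042) and 3.36-fold in HEPES (1.75 ± 0.043), with adjusted p at most 4.23e-24 in all 4 comparisons. The LPS change was smaller on the log2 scale in MOPS by 0.24 (interaction -0.24 ± 0.059, adjusted p = 0.00155). Ranked by CPM per kilobase, Hmox1 was number 8 of the 14506 genes in MOPS with LPS and number 51 in HEPES with LPS, and number 10 in MOPS and 107 in HEPES.

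The biliverdin reductases did not move together. Blvrb (ENSMUSG00000040466, chr7:27447978-27466144, plus strand), which encodes biliverdin reductase B, also a flavin reductase, was at 504, 492 and 498 CPM in MOPS with LPS, against 218, 219.8 and 239 CPM in HEPES with LPS. In untreated cells it was at 394, 411 and 380.2 CPM in MOPS, against 216, 224 and 219 CPM in HEPES. The MOPS libraries were all above the HEPES libraries, by 2.21-fold with LPS (log2 1.14 ± 0.04, adjusted p = 7.66e-21) and 1.8-fold without it (0.85 ± 0.039, adjusted p = 1.04e-17). LPS raised Blvrb in MOPS (0.33 ± 0.039, adjusted p = 5.73e-09, and -0.18 under total counts). In HEPES the groups overlapped and the LPS change did not pass the test (0.04 ± 0.04, adjusted p = 0.366); it was -0.11 with upper quartile factors and -0.55 under total counts, both called lower, and 0.11 and 0.10 without HEPES-LPS replicates 10 and 11, both called higher. The LPS change differed between the media (interaction 0.29 ± 0.056, adjusted p = 7.71e-05).

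Blvra (ENSMUSG00000001999, chr2:127070665-127097084, plus strand) encodes biliverdin reductase A, the main adult enzyme. Its levels were 58.2, 57.7 and 62.5 CPM in MOPS with LPS, against 46.1, 51.5 and 50.3 CPM in HEPES with LPS. At rest it stood at 69.2, 66.8 and 68.4 CPM in MOPS, against 79.7, 75.7 and 79.7 CPM in HEPES. The direction of the medium difference was opposite at rest and under LPS, with no overlap in either: the gene was lower in MOPS without LPS (log2 -0.20 ± 0.047, adjusted p = 0.000575) and higher in MOPS with LPS (0.27 ± 0.052, adjusted p = 4.84e-05). LPS lowered it in both media, by 0.20 ± 0.049 log2 units in MOPS (adjusted p = 0.000706) and by 0.67 ± 0.05 in HEPES (adjusted p = 1.53e-13), and the difference between the media passed the test (interaction 0.47 ± 0.07, adjusted p = 2.21e-06). Per kilobase, Hmox1 stood 21.1 to 22.7 times above Blvrb in MOPS with LPS and 11.3 to 12.3 times in HEPES with LPS, and 9.68 to 9.88 times in MOPS and 3.53 to 3.64 times in HEPES.

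Slc40a1 (ENSMUSG00000025993, chr1:45908068-45926523, minus strand) encodes ferroportin, the exporter that hepcidin removes from the cell surface. With LPS it was at 14.3, 18.3 and 18.3 CPM in MOPS libraries, against 1.25, 1.01 and 1.17 CPM in HEPES libraries. Untreated libraries held 62.5, 64.9 and 62.9 CPM in MOPS, against 13.4, 12.5 and 12.7 CPM in HEPES. The groups did not overlap, and the 3 MOPS libraries with LPS stood just above the 3 HEPES libraries that had received none. The medium difference was 14.8-fold with LPS (log2 3.89 ± 0.14, adjusted p = 9.87e-21) and 4.93-fold without it (2.30 ± 0.07, adjusted p = 2.17e-22), the 26th and the 78th highest changes of all genes tested. LPS lowered Slc40a1 by 3.73-fold in MOPS (-1.90 ± 0.071, adjusted p = 5.62e-21) and by 11.2-fold in HEPES (-3.49 ± 0.14, adjusted p = 2.36e-20). The interaction was 1.59 ± 0.18 (adjusted p = 2.04e-08), a 3.00-fold smaller loss in MOPS. HEPES with LPS rests on 23, 19 and 21 counts in its libraries, the lowest counts of any member, and over all alternatives the medium difference with LPS lay between 3.77 and 3.98. Its rank in HEPES with LPS was number 13282 of 14506 by CPM per kilobase, against number 8798 in MOPS with LPS, 5098 in MOPS and 9830 in HEPES.

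**Figure D2:**
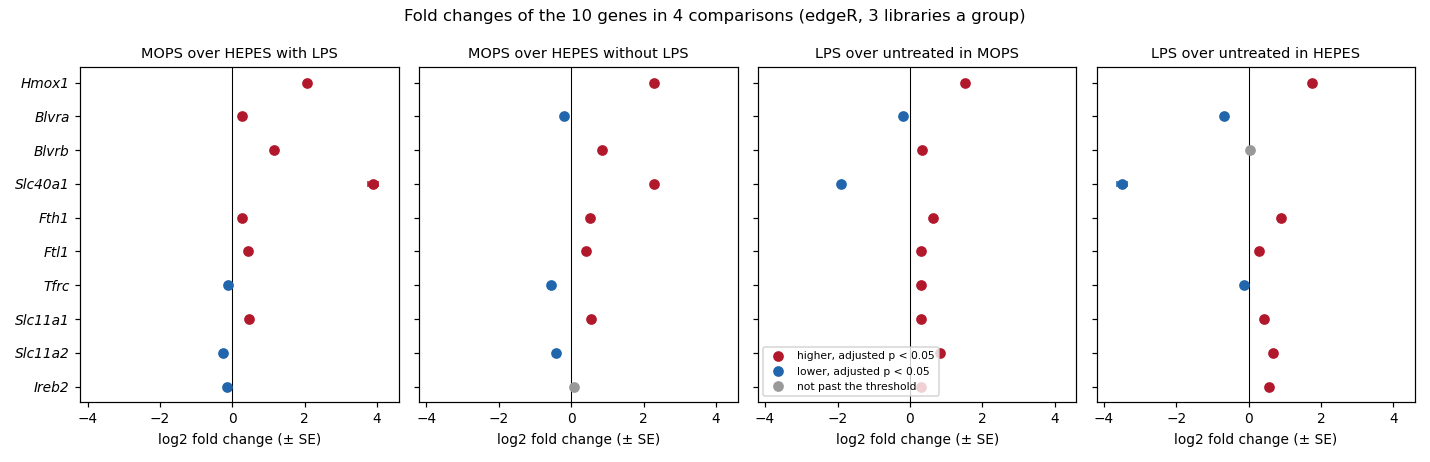
Log2 fold changes with their standard errors for the 10 genes in the 4 pairwise comparisons, 3 libraries a group; red and blue mark higher and lower at an adjusted p under 0.05 and grey marks changes that did not pass. Hmox1 and Slc40a1 lie above 2 in both medium comparisons, and Slc40a1 is the farthest left under LPS (-1.90 in MOPS and -3.49 in HEPES).

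The ferritin chains were among the most abundant mRNAs of these cells. Fth1 (ENSMUSG00000024661, chr19:9982703-9985092, plus strand), the heavy chain that oxidises iron for storage, was at 23196, 22866 and 23588 CPM in MOPS with LPS, against 18875, 19803 and 19522 CPM in HEPES with LPS. Without LPS the levels were 15162, 15085 and 14413 CPM in MOPS, against 10372, 10707 and 10188 CPM in HEPES. Every MOPS library lay above every HEPES library of the same LPS state, and every LPS library above every untreated one. The MOPS level was 1.20 times the HEPES level with LPS (log2 0.26 ± 0.036, adjusted p = 2.67e-07) and 1.43 times without it (0.51 ± 0.036, adjusted p = 1.99e-13). LPS raised Fth1 by 0.64 ± 0.036 in MOPS and by 0.90 ± 0.036 in HEPES, with an interaction of -0.26 ± 0.05 (adjusted p = 0.000133); under total counts these LPS changes were 0.13 and 0.31, the lowest of any alternative and still called higher. By CPM per kilobase Fth1 ranked first of 14506 genes in MOPS with LPS, in HEPES with LPS and in MOPS, and number 2 in HEPES.

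Ftl1 (ENSMUSG00000050708, chr7:45457944-45459884, minus strand), the light chain that supports the iron core, was at 7043, 7398 and 7549 CPM in MOPS with LPS, against 5289, 5609 and 5405 CPM in HEPES with LPS. In the untreated state it was at 6005, 6187 and 5639.8 CPM in MOPS, against 4213, 4599 and 4589 CPM in HEPES. The groups compared did not overlap, and MOPS was above HEPES by 1.35-fold with LPS (log2 0.43 ± 0.041) and 1.33-fold without it (0.41 ± 0.041), with adjusted p of 1.90e-10 and 7.05e-10. LPS raised Ftl1 by 0.30 ± 0.041 in MOPS and 0.28 ± 0.041 in HEPES, both called, but the change was -0.21 in MOPS and -0.30 in HEPES under total counts. The interaction did not pass the test (0.02 ± 0.058, adjusted p = 0.826). The near-identical copy Ftl1-ps1 held at most 2.63% of Ftl1's count in any library, and for reads that match both the counting rule is not given in the sources used here; copies of Fth1 held at most 0.00248% of its count.

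Both chains together took 2.55% to 2.66% of all counts in MOPS with LPS and 1.93% to 2.03% in HEPES with LPS, and 2.45% to 2.58% in MOPS and 1.75% to 1.82% in HEPES. As shares of raw counts these figures do not use TMM factors. The ratio of Fth1 to Ftl1 per kilobase was 4.78 to 5.10 in MOPS with LPS and 5.46 to 5.59 in HEPES with LPS, and 3.77 to 3.95 in MOPS and 3.44 to 3.81 in HEPES. A ratio within a library does not depend on scaling: the LPS libraries were above the untreated ones in both media (log2 differences of 0.34 in MOPS and 0.61 in HEPES), each with an exact two-sided permutation p of 0.1, the smallest that 3 against 3 allows. Without LPS the media overlapped in this ratio (exact permutation p = 0.2).

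Tfrc (ENSMUSG00000022797, chr16:32608920-32632794, plus strand) brings in transferrin-bound iron and carries the 4 hairpins shown above, and its medium difference was opposite to that of the exporter. It was at 74.4, 73.6 and 69.4 CPM in MOPS with LPS, against 78.8, 79.2 and 79.3 CPM in HEPES with LPS. Cells without LPS gave 54.4, 59.5 and 61.7 CPM in MOPS, against 88.8, 83.9 and 84.7 CPM in HEPES. The MOPS libraries were below the HEPES libraries in both states, by more without LPS (log2 -0.55 ± 0.047, adjusted p = 2.36e-11). With LPS the difference was small (-0.13 ± 0.049, adjusted p = 0.0309) and no longer passed under 4 alternatives, among them total counts (adjusted p = 0.605) and leaving out MOPS-LPS replicate 9 (adjusted p = 0.139). LPS raised Tfrc in MOPS by 0.31 ± 0.049 (adjusted p = 1.66e-06, but -0.20 under total counts). In HEPES the LPS change was -0.12 ± 0.047 (adjusted p = 0.0249), a call lost under 9 of 20 alternatives, including DESeq2 (adjusted p = 0.187) and without HEPES replicate 4, MOPS-LPS replicate 7 or 8 or any single HEPES-LPS library (adjusted p of 0.0947 to 0.227). The LPS change differed between the media (interaction 0.43 ± 0.068, adjusted p = 6.95e-06).

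Of 5 ratios between genes computed, that of the importer to the exporter had the widest range over the libraries. Per kilobase, Tfrc stood 5.52 to 7.55 times above Slc40a1 in MOPS with LPS and 91.6 to 114 times above it in HEPES with LPS. Without LPS it stood 1.27 to 1.43 times above Slc40a1 in MOPS and 9.63 to 9.79 times in HEPES. The MOPS libraries were thus lower, with log2 differences of -4.02 with LPS and -2.86 without it, and LPS raised the ratio by 2.22 in MOPS and 3.38 in HEPES. None of these groups overlapped, and each exact two-sided permutation test gave p = 0.1, the smallest possible with 3 against 3. Since Tfrc itself differed by less than 2-fold, the spread of the ratio follows that of Slc40a1.

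**Figure D3:**
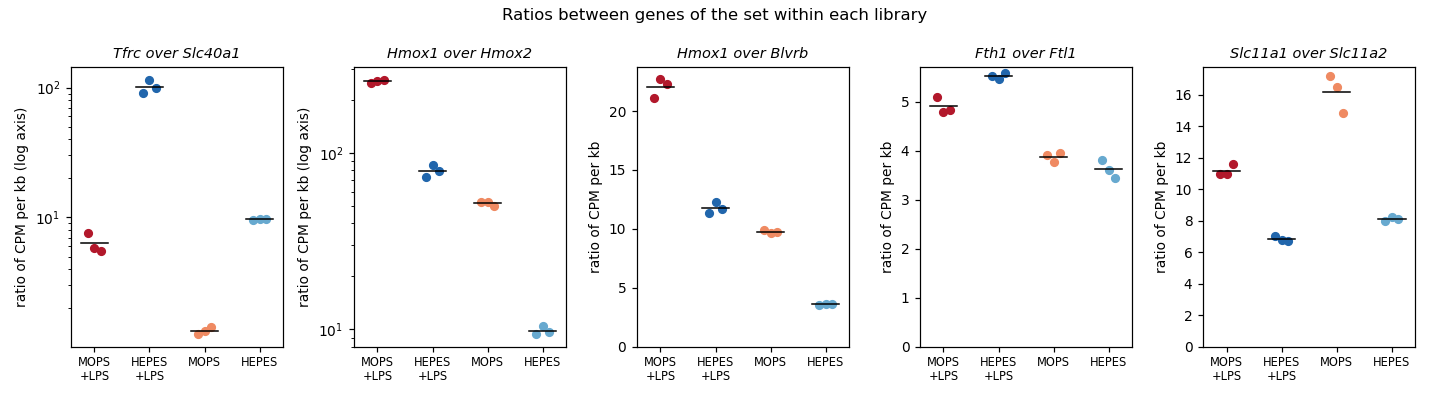
Ratios of CPM per kilobase between pairs of genes within each library (points) with the group mean (line); the 2 left panels have log axes and the others start at 0. Tfrc over Slc40a1 lies between 91.6 and 114 in HEPES with LPS and between 1.27 and 1.43 in MOPS without LPS.

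The NRAMP family members moved apart by medium. Slc11a1 (ENSMUSG00000026177, chr1:74375195-74386062, plus strand) encodes a phagosomal metal transporter. Only its mRNA was measured, and whether the protein is functional in this mouse strain was not tested. Slc11a1 was at 1051, 1073 and 1101 CPM in MOPS with LPS, against 793, 768 and 795 CPM in HEPES with LPS. Without LPS it was at 852, 879 and 861 CPM in MOPS, against 585, 585 and 596 CPM in HEPES. MOPS libraries were above HEPES libraries by 1.37-fold with LPS (log2 0.45 ± 0.035, adjusted p = 1.38e-12) and by 1.47-fold without it (0.55 ± 0.035, adjusted p = 1.58e-14). LPS raised it by 0.31 ± 0.034 in MOPS and 0.42 ± 0.035 in HEPES, both called, against -0.20 and -0.17 under total counts. The interaction did not pass (-0.10 ± 0.049, adjusted p = 0.101) but was called under 7 alternatives, among them DESeq2 (adjusted p = 0.00566) and leaving out MOPS-LPS replicate 7 or 8 or any one HEPES-LPS library (adjusted p of 0.0149 to 0.0399).

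Slc11a2 (ENSMUSG00000023030, chr15:100387898-100425072, minus strand), which carries iron out of endosomes after transferrin uptake, was at 164, 168 and 162 CPM in MOPS with LPS, against 193, 193 and 204 CPM in HEPES with LPS. In untreated cells it was at 84.9, 91.5 and 99.3 CPM in MOPS, against 125, 121 and 126 CPM in HEPES. MOPS libraries were below HEPES libraries in both states (log2 -0.25 ± 0.045 with LPS, adjusted p = 1.57e-05, and -0.43 ± 0.046 without it, adjusted p = 2.02e-09). LPS raised the gene by 0.84 ± 0.046 in MOPS and 0.66 ± 0.045 in HEPES, both called, although in HEPES the change was 0.08 with an adjusted p of 0.116 under total counts. The interaction of 0.18 ± 0.064 (adjusted p = 0.0248) was lost under 9 of 19 alternatives, among them leaving out MOPS replicate 1, HEPES replicate 6, MOPS-LPS replicate 7 or 8 or any one HEPES-LPS library (adjusted p of 0.0517 to 0.168). Slc11a1 exceeded Slc11a2 per kilobase by 10.9 to 11.6 times in MOPS with LPS and 6.70 to 7.06 times in HEPES with LPS, and by 14.9 to 17.2 times in MOPS and 8.01 to 8.27 times in HEPES.

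Ireb2 (ENSMUSG00000032293, chr9:54863789-54912530, plus strand) encodes the sensor protein IRP2, which iron-replete cells degrade. It was at 99.5, 107.5 and 100.6 CPM in MOPS with LPS, against 115, 121 and 108.3 CPM in HEPES with LPS. At rest it stood at 80.4, 82.9 and 83.8 CPM in MOPS, against 81.1, 78.5 and 75.3 CPM in HEPES. The untreated groups overlapped and their difference did not pass the test (log2 0.07 ± 0.046, adjusted p = 0.197), and with LPS the MOPS level was lower by 0.16 ± 0.047 (adjusted p = 0.00341, and 0.21 under total counts). LPS raised Ireb2 by 0.32 ± 0.047 in MOPS and by 0.55 ± 0.046 in HEPES (adjusted p of 5.14e-07 and 2.95e-12), against -0.20 and -0.03 under total counts. The interaction was -0.24 ± 0.066 (adjusted p = 0.00425).

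Likeness of pattern was measured as Pearson's r of log2 CPM over the 12 libraries, among 8514 protein-coding genes with at least 10 CPM in some group; the 12 libraries share 4 groups, so r is a description of the group pattern. Nearest to Hmox1 was Slc11a1, itself one of the 10 (r = 0.997), followed by Gclc, the catalytic subunit of the glutathione-forming glutamate-cysteine ligase (0.992), and Cdkn2b, a cyclin-dependent kinase inhibitor (0.991). Gclc averaged 227 CPM in MOPS with LPS, against 109.5 CPM in HEPES with LPS, and 134 CPM in MOPS, against 71.9 CPM in HEPES. Closest to Slc40a1 were Pld1, a phospholipase D (0.997), Gstt2, a glutathione transferase (0.996), and Susd3 (0.995). Susd3 averaged 21.1 CPM in MOPS with LPS, against 4.73 CPM in HEPES with LPS, and 54.1 CPM in MOPS, against 21.5 CPM in HEPES.

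The wider pathway was described with 7 lists of other heme and iron genes, 68 genes of which 58 were tested. With LPS, 29 were higher in MOPS and 10 lower, with a median log2 change of 0.24; without LPS, 17 were higher and 14 lower, with a median of 0.00. LPS over untreated cells called 18 higher and 18 lower in MOPS (median -0.09) and 20 higher and 28 lower in HEPES (median -0.29); under total counts these were 9 higher and 40 lower in MOPS and 11 higher and 40 lower in HEPES, and with upper quartile factors 16 higher and 28 lower in MOPS. The interaction was called positive in 22 and negative in 10. The shares of all genes called in each direction are those given above for the members.

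Heme synthesis held 7 tested genes, of which 5 were called higher in MOPS with LPS while the other 2 did not pass, and without LPS 3 were higher and 1 lower. Alas1, the rate-limiting enzyme outside red cells, averaged 1007 CPM in MOPS with LPS, against 643 CPM in HEPES with LPS (log2 0.65 ± 0.053, adjusted p = 2.18e-09), and 289 CPM in MOPS, against 125 CPM in HEPES (1.21 ± 0.056, adjusted p = 2.62e-13). LPS raised Alas1 by 1.8 ± 0.055 in MOPS and by 2.36 ± 0.057 in HEPES. Fech, which inserts the iron, was higher in MOPS with LPS by 0.82 ± 0.052 and without it by 0.22 ± 0.046, and fell by 0.69 ± 0.051 under LPS in HEPES. Ppox, the oxidase of the step before it, fell under LPS by 0.47 ± 0.077 in MOPS and by 0.82 ± 0.084 in HEPES.

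Among 12 tested genes of heme uptake, transport and sensing, 7 rose and 1 fell in MOPS relative to HEPES with LPS, and 2 rose and 5 fell without it. Slc48a1 (HRG1), which moves heme out of phagolysosomes in macrophages, averaged 696 CPM in MOPS with LPS, against 308 CPM in HEPES with LPS (log2 1.18 ± 0.038), and 603 CPM in MOPS, against 319 CPM in HEPES (0.92 ± 0.037). Bach1, the heme-sensing repressor of Hmox1 transcription, averaged 133 CPM in MOPS with LPS, against 310.3 CPM in HEPES with LPS (-1.22 ± 0.061, adjusted p = 4.5e-12). Without LPS Bach1 was at 165 CPM in MOPS, against 156 CPM in HEPES, a difference that did not pass (adjusted p = 0.261). Cd163, the receptor for haptoglobin-bound hemoglobin, was higher in MOPS with LPS by 1.12 ± 0.11 and fell under LPS in HEPES by 1.36 ± 0.1. Without LPS Cd163 was lower in MOPS, at 14.8 CPM, against 17.2 CPM in HEPES (-0.22 ± 0.086, adjusted p = 0.031). That call was lost with DESeq2 (adjusted p = 0.0913), with RLE factors (0.0542) and without MOPS replicate 1 or 2 or HEPES replicate 4 or 5 (0.0659 to 0.133).

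Hmox2, the constitutive heme oxygenase, and Flvcr1, a heme exporter, both fell under LPS. Hmox2 fell by 0.78 ± 0.05 in MOPS and by 1.26 ± 0.052 in HEPES, and Flvcr1 by 0.75 ± 0.061 and by 1.23 ± 0.064. Between the media, Hmox2 differed by 0.37 ± 0.056 with LPS and by -0.11 ± 0.046 without it. The inducible form thus exceeded the constitutive one per kilobase by 248 to 258 times in MOPS with LPS and 73.4 to 85.7 times in HEPES with LPS, and by 50.1 to 52.9 times in MOPS and 9.42 to 10.4 times in HEPES. Spic, the transcription factor of red pulp macrophages, was detected at 4.90 to 11.9 CPM on average in the 4 groups. It rose under LPS by 1.05 ± 0.12 in MOPS and by 0.79 ± 0.13 in HEPES. The interaction did not pass the edgeR test (0.27 ± 0.18, adjusted p = 0.261).

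**Figure D4:**
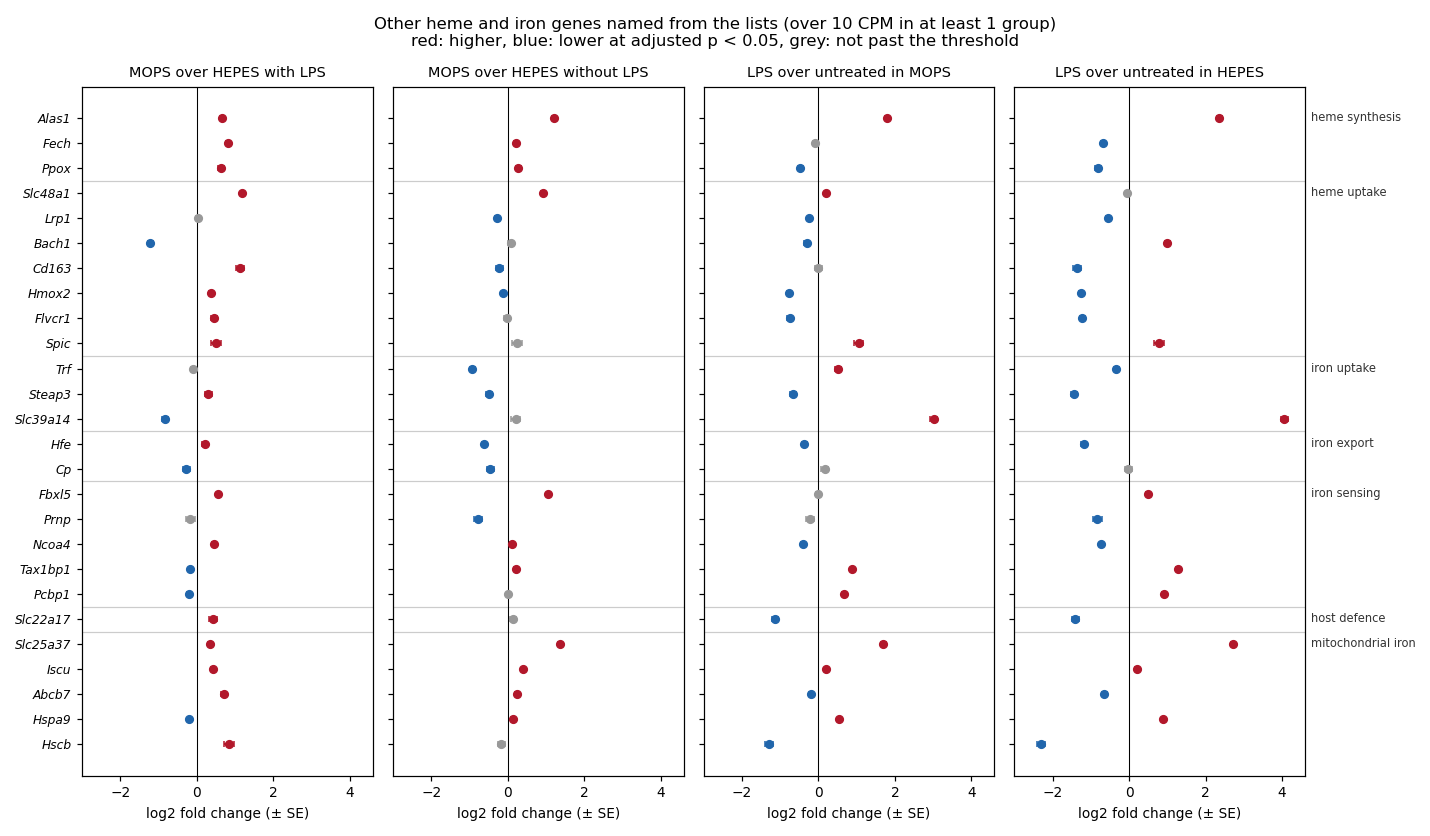
Log2 fold changes with standard errors of 26 other heme and iron genes, those named from the lists with a mean over 10 CPM in at least 1 group, in the 4 pairwise comparisons; list names stand at the right and colours mark higher, lower and not past the threshold. Slc39a14 lies farthest right under LPS, at 3.01 in MOPS and 4.06 in HEPES.

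Of 8 tested genes of iron uptake, reduction and vesicle release, the MOPS level was higher for 2 and lower for 3 with LPS, and without LPS it was lower for 3 while the other 5 did not pass. Trf, which encodes transferrin, averaged 21.0 CPM in MOPS, against 40.2 CPM in HEPES without LPS (log2 -0.93 ± 0.066, adjusted p = 2.82e-13), and the ferrireductase gene Steap3 differed by -0.49 ± 0.071. With LPS the Trf difference did not pass (-0.09 ± 0.07, adjusted p = 0.286), and Steap3 was higher in MOPS (0.30 ± 0.091, adjusted p = 0.00559), a call lost without HEPES-LPS replicate 10 (0.18, adjusted p = 0.133). Slc39a14 (ZIP14), an importer of iron not bound to transferrin, averaged 141 CPM in MOPS with LPS, against 253 CPM in HEPES with LPS (-0.84 ± 0.078). LPS raised Slc39a14 by 3.01 ± 0.093 in MOPS and by 4.06 ± 0.094 in HEPES, the largest LPS rise among the heme and iron genes over 10 CPM that are named here. Beside the exporter, 4 of 8 listed genes were tested, and the hepcidin genes Hamp and Hamp2 were not among them. In MOPS relative to HEPES, 1 was higher and 1 lower with LPS, and 1 was higher and 2 lower without it. Cp was lower in MOPS with LPS (-0.28 ± 0.091, adjusted p = 0.0106, and 0.0834 under total counts) and without it (-0.45 ± 0.085, adjusted p = 4.28e-05). Hfe, which takes part in iron sensing with the transferrin receptor, was lower in MOPS without LPS (-0.62 ± 0.053). With LPS, Hfe was higher in MOPS by 0.21 ± 0.064 (adjusted p = 0.0074), a call lost without MOPS-LPS replicate 7 or HEPES-LPS replicate 12 (adjusted p = 0.112 and 0.216).

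In the list of iron sensing, chaperones and ferritin turnover, 3 of 8 rose and 2 fell in MOPS relative to HEPES with LPS, and 4 rose and 1 fell without it. Fbxl5, the iron-sensing ubiquitin ligase subunit that targets IRP2 for degradation, averaged 148 CPM in MOPS with LPS, against 100.3 CPM in HEPES with LPS (log2 0.56 ± 0.043), and 149.6 CPM in MOPS, against 71.6 CPM in HEPES (1.06 ± 0.042, adjusted p = 1.91e-19). Ncoa4, the receptor that delivers ferritin to lysosomes, was higher in MOPS with LPS by 0.44 ± 0.046. Tax1bp1, an autophagy receptor, rose under LPS by 0.88 ± 0.039 in MOPS and by 1.27 ± 0.039 in HEPES, and the iron chaperone gene Pcbp1 by 0.67 ± 0.041 and by 0.90 ± 0.041.

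Mitochondrial iron and iron-sulphur cluster genes had 10 of 16 called higher and 2 lower in MOPS with LPS, and 7 higher and 2 lower without it. Slc25a37, mitoferrin 1, the mitochondrial iron importer best known from red cell precursors, averaged 772 CPM in MOPS with LPS, against 611 CPM in HEPES with LPS (log2 0.34 ± 0.053), and 238 CPM in MOPS, against 92.7 CPM in HEPES (1.36 ± 0.056, adjusted p = 2.57e-14). LPS raised Slc25a37 by 1.70 ± 0.055 in MOPS and by 2.72 ± 0.058 in HEPES. Erythroid markers summed to at most 3.17 CPM with LPS, and the part of red cell RNA in the Slc25a37 level was not tested. Iscu, the scaffold on which clusters form, was higher in MOPS by 0.42 ± 0.046 with LPS and by 0.41 ± 0.045 without it. Hscb, a cochaperone of cluster transfer, fell under LPS by 1.29 ± 0.1 in MOPS and by 2.30 ± 0.11 in HEPES. Of the iron-binding defence genes 3 of 4 were tested; Lcn2, which binds bacterial siderophores, averaged 2.8 CPM in MOPS with LPS, against 7.6 CPM in HEPES with LPS (-1.44 ± 0.24, adjusted p = 1.78e-05), and at most 0.131 CPM in the untreated groups.

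Hmox1, Fth1, Ftl1 and Blvrb are known targets of the stress-response factor NRF2, so 11 other genes of that system are set beside them. Of these, 8 rose and 2 fell in MOPS relative to HEPES with LPS (median log2 change 0.79), and 9 were higher and 1 lower without it (0.89). Over all genes tested, 26.9% were higher and 26.9% lower with LPS (median 0.00469), and 24.3% higher and 25.4% lower without it (-0.0139). Nfe2l2, which encodes NRF2 itself, was the 1 lower gene: it averaged 226 CPM in MOPS, against 391 CPM in HEPES without LPS (-0.79 ± 0.035, adjusted p = 2.89e-18). With LPS, Nfe2l2 was higher in MOPS by 0.26 ± 0.035, and LPS raised it by 1.43 ± 0.035 in MOPS and by 0.38 ± 0.035 in HEPES. Total counts moved the median of all genes by -0.58 in HEPES, more than this HEPES rise, which was not refitted under other scalings. The 2 genes lower in MOPS with LPS were Maff (-0.26 ± 0.049) and Mafk (-0.41 ± 0.052), which encode small MAF partners of NRF2. Keap1, which encodes the inhibitor of NRF2, is counted among the higher genes, at 0.79 ± 0.064 with LPS and 0.23 ± 0.053 without it. The list thus mixes targets, partners and an inhibitor, and its counts are not counts of targets. Slc7a11, the cystine importer, was higher in MOPS without LPS by 1.64 ± 0.052. With LPS the Slc7a11 difference did not pass (0.09 ± 0.048, adjusted p = 0.11), and the groups overlapped; it passed under total counts, with no filter, in a fit of only the groups compared and without MOPS-LPS replicate 9 (0.11 to 0.19, adjusted p = 0.00122 to 0.0495). Promoters of 300 bases from the RefSeq table were searched on both strands for TGACNNNGC, the core of the antioxidant response element. They covered 7 of the 10 members. Hmox1, Slc40a1 and Slc11a2 had no promoter there and were not searched. Only Blvra held the motif among the 7 members searched. Over all 32851 promoters the share was 12.4%, counted per promoter and not per gene, as some members had more than 1. A match is a description and no match says nothing of sites elsewhere.

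In the authors' deposited table, 9, 9, 10 and 8 of the 10 members had an adjusted p under 0.05 in MOPS over HEPES without LPS, in MOPS over HEPES with LPS, and under LPS in MOPS and in HEPES, and each of them had the same sign here, where 9, 10, 10 and 9 were called. The share of all genes called in the authors' table was not computed, and the shares called here are those given above for the members. Both sets of calls rest on the same libraries, so the matching signs are not independent support.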

How the data were processed

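RNA-seq was measured in 12 libraries of mouse resident peritoneal macrophages, 3 in each of 4 groups. Per the submitters' processing notes, CASAVA 1.8, HISAT2 2.0.5 and featureCounts 1.5.0-p3 were used with mm10; the strand setting is not given in the sources used here. Raw counts per gene and gene lengths are in the deposited table, per the file headers; the FPKM columns the authors deposited were not used, and their columns of other units (group means, log2 fold changes and p-values) served only for the side-by-side count, with LPS comparisons turned to LPS over untreated. Counts were filtered with filterByExpr, scaled by TMM (factors 0.800 to 1.22) and fitted in edgeR 4.0.16 (R 4.3.3) as 4 group means with robust quasi-likelihood dispersion and 8 residual degrees of freedom; the method was tested on simulated data. P-values were adjusted over 14506 genes and called under 0.05. Alternatives were DESeq2 1.42.0, limma 3.58.1 voom, RLE, upper quartile and total-count scaling, no filter, a mean of at least 10 CPM in a group, only the groups compared, and leaving out each library. Within groups, pairs of libraries differed by 2.66 to 6.54 chi-square units per degree of freedom, so none was a copy of another. The precision is that of 20114613 to 24734853 counts a library. The members and the lists were chosen with earlier results of these data known. A gene of the heme synthesis list is not reported here and is left out of that list's counts. From each list up to 2 genes of smallest p in each comparison and every gene past the threshold and 2-fold could be named; not all of these are described, and those under 10 CPM mostly are not. Ratios were tested by exact permutation of the libraries.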

Additional observations from a re-analysis of the deposited data

Results flagged for a closer look

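The LPS response differed between the media, by the test of the interaction in edgeR (log2 LPS change in MOPS less the one in HEPES, 3 libraries a group), in 8 of the 10 genes. Over all genes tested, 21.9% were called positive and 17.6% negative. Among the members the difference was positive in Slc40a1 (1.59), Blvra (0.47), Tfrc (0.43), Blvrb (0.29) and Slc11a2 (0.18). It was negative in Fth1 (-0.26), Hmox1 (-0.24) and Ireb2 (-0.24). Positive values stand for a smaller fall in MOPS in Slc40a1 and Blvra, and for a larger rise in MOPS in Slc11a2. Fth1, Hmox1 and Ireb2 rose less in MOPS. The value for Slc11a2 is the smallest of the positive ones and the one whose call was lost most often among the alternatives (9 of 19).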

How the results depend on the processing

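Of 990 refits of the 10 members in the 5 comparisons, 947 kept direction and side of the threshold, 24 no longer passed, 9 newly passed and 10 reversed. The number of members called stayed within 1.5 times its value in every comparison under every alternative. The reversals all concern LPS over untreated. Under total counts they were Blvrb -0.18, Ftl1 -0.21, Tfrc -0.20, Slc11a1 -0.20 and Ireb2 -0.20 in MOPS, and Blvrb -0.55, Ftl1 -0.30, Slc11a1 -0.17 and Ireb2 -0.03 in HEPES; with upper quartile factors, Blvrb was -0.11 in HEPES. These scalings move the median of all genes by -0.51 and -0.58 (total counts) and by -0.14 and -0.15 (upper quartile). Hmox1, Blvra, Slc40a1 and Fth1 kept the call and direction of all comparisons under all alternatives. Blvrb, Ftl1, Slc11a1 and Slc11a2 kept those of both medium comparisons. No paired analysis was possible because no replicate number occurs in more than 1 group. Depth limits Slc40a1 in HEPES with LPS, at 19 to 23 counts a library.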
